A study of Glycine max with 12 samples.

Results

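The MYB transcription factors of soybean (Glycine max) were followed in leaves of aphid-susceptible and aphid-resistant plants, with and without a long colonization by soybean aphids. MYB proteins bind DNA through repeats of a helical domain that is built around regularly spaced tryptophans, and plants carry far more of them than animals do. In soybean they are best known as switches of the phenylpropanoid pathway, which makes lignin, flavonoids and the isoflavones that are typical of legumes, and as regulators of responses to drought, salt and wounding. Soybean MYB numbers do not follow the numbers of Arabidopsis, so a MYB of the same number in that species is not its counterpart.

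Members were all soybean probe sets of the Affymetrix Soybean Genome Array to which the platform annotation gives a single gene symbol that starts with MYB. This took in 102 of 37593 soybean probe sets, and they stood for 65 of the 6029 genes with a symbol of their own. Where a gene had several probe sets, the one with the highest mean over the 12 arrays stood for it. A further 15 MYB probe sets named several gene symbols at once and were kept out of the counts.

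The groups were SA and RA, the infested plants of the susceptible line SD01-76R (S plants) and of the resistant line LD05-16060 (R plants), and SC and RC, the uninfested plants of the same lines. Each group held 3 arrays of the third trifoliate leaf, taken 21 days after infestation with 30 aphids per plant, and each array pooled a pair of plants. The resistant line carries Rag1, a locus that limits growth of the aphid biotype used, so the aphid load at harvest was not the same on both lines. Each genotype is a single line, infested and uninfested plants stood in opposite sides of one growth chamber, and a difference between groups can therefore not be told apart from the side of the chamber or from other differences between the lines.

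Levels are log2 intensities after quantile normalization over all soybean probe sets. Medians of the arrays as deposited ran from 6.86 to 7.71, and no array stood apart in the spread of its MYB values. All 6 leaf marker genes (photosynthesis genes) lay above the control probe sets in every group. Of 17 seed storage and inhibitor genes 9 to 14 lay at that level. Of 4 nodule genes only 1 did so in RA and in RC plants, and none in SA and SC plants. The highest group mean of a nodule gene was 6.60 (NOD33 in SA plants). The log2 of the summed seed marker intensities ran from 11.71 to 12.91 in RA and from 10.17 to 11.40 in SA, which do not overlap. This sum rests largely on the bright inhibitor genes KTI-2 and KTI-3, with RA minus SA differences of 2.42 and 2.27. Of the 17 genes 7 lay above 0 and 10 below in RA minus SA, with a median of -0.05. The part of these genes in the comparison of RA with SA was not tested. In whole leaves, fewer cells of a type and less RNA per cell cannot be told apart.

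The MYB genes spanned most of the range of the array. Mean levels in RC plants went from 4.71 to 11.12, with a median of 7.03. The median of 60 control probe sets lay between 5.39 and 5.43 in the 4 groups and was taken as the control level. Of the 65 genes, 9 lay at or below it in every group, namely MYB84, MYB98, MYB99, MYB101, MYB114, MYB134, MYB150, MYB181 and MYB185, and for these a difference between groups has little meaning. RefSeq lists MYB134 as a synonym of MYB114, so these 9 symbols may stand for fewer genes. Another 4 genes (MYB97, MYB118, MYB164 and MYB172) reached the control level in some groups. MYB176, a single-repeat MYB that switches on chalcone synthase gene CHS8 on the way to isoflavones, had the highest group mean of the family.

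Most of the family differed little between groups. The distance between the highest and the lowest of the 4 group means had a median of 0.40 on the log2 scale, 39 genes stayed under 0.5, and 10 genes reached 1 or more. The pooled SD between arrays of a group had a median of 0.25. RC plants gave the highest mean for 23 genes, SA plants for 19, RA plants for 12 and SC plants for 11, or 35.4%, 29.2%, 18.5% and 16.9% beside 28.4%, 27.2%, 20.4% and 24.0% of all probe sets. Infested S plants gave the lowest mean for 25 genes, a share of 38.5% beside 42.2% of all probe sets.

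In the susceptible response, the comparison of infested with uninfested S plants, 4 of 65 MYB genes rose and none fell (limma, adjusted p under 0.05). The 4 were MYB29, MYB12A, MYB81 and MYB68. The leaf markers moved beside this, with a median of -0.53 over 6 genes and none past the test. Rubisco activase genes RCAALPHA (-0.90), RCABETA (-0.87) and RCA14 (-0.62) had all SA arrays below all SC arrays, and the part of these shifts in the MYB values was not tested. Over all soybean probe sets 2.51% were called higher and 0.902% lower in the same comparison. At an unadjusted p under 0.05, 9 genes were higher and 5 lower, beside 7.73% and 8.88% of all probe sets. The family as a whole did not lean one way, with 32 differences above and 33 below 0 and a median of -0.01, against -0.04 over all probe sets.

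MYB29, an R2R3 factor that activates isoflavone synthesis genes in soybean, moved furthest. Its levels were 9.33, 7.75 and 8.64 in SA plants, against 6.66, 6.70 and 5.69 in SC plants. In R plants it measured 5.89, 6.18 and 5.73 in RA and 5.68, 5.68 and 5.74 in RC, close to the control level. Every infested S array thus lay above the other 9 arrays. The log2 difference between SA and SC plants was 2.22 (SE 0.35, limma adjusted p = 0.00519), a 4.67-fold higher level. A second probe set of MYB29 gave 2.08 (adjusted p = 0.0125) and followed the first across the 12 arrays with r = 0.98, although both read largely the same RNA. MYB29 was the 1 member that passed with any single array left out, with adjusted p from 0.00152 to 0.0203. The study's own annotation gives this probe set to a different gene ID. The closest Arabidopsis match of that gene is MYB15, a factor of defence lignification in that species. How the 2 assignments relate was not examined, so the signal cannot be given to 1 gene with certainty.

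MYB12A showed the same order of groups at a higher level. It reached 8.86, 7.94 and 8.45 in SA plants, against 7.43, 7.22 and 6.63 in SC plants. RA plants gave 6.90, 7.22 and 7.12, and RC plants 7.10, 7.14 and 6.85. Uninfested S plants and both R groups overlapped, and the SA arrays lay above them all. The difference of SA from SC was 1.32 (SE 0.25, adjusted p = 0.0122).

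MYB12A was also the gene whose probe sets differed most in the size of the susceptible response. Of its 4 probe sets 3 rose, by 1.32, 1.60 and 2.65, with adjusted p = 0.0122, 0.0163 and 0.00812. The steepest read 9.35, 7.63 and 8.87 in SA plants, against 6.82, 5.24 and 5.84 in SC plants, and the study's annotation gives it to another MYB gene. The fourth probe set lay near the control level throughout, between 4.90 and 5.55 over all arrays, with a difference of 0.05 (adjusted p = 0.902). The symbol thus covers unlike readouts, and the size of its rise depends on which one is used.

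MYB81, one of the MYB genes linked to tolerance of abiotic stress, was even in uninfested S plants. It measured 9.01, 8.81 and 8.31 in SA plants, against 7.68, 7.56 and 7.66 in SC plants. R plants gave 7.55, 7.82 and 7.60 in RA and 7.49, 8.15 and 7.91 in RC. The rise in S plants was 1.08 (SE 0.20, adjusted p = 0.0134). MYB68 was a dim gene whose replicates agreed closely. It measured 6.39, 6.17 and 6.41 in SA plants, against 5.71, 5.67 and 5.77 in SC plants, a difference of 0.61 (SE 0.12, adjusted p = 0.0166). Its pooled SD of 0.087 was the lowest of the family. Without array SA 1, SC 1 or SC 2 it no longer passed (adjusted p up to 0.0891).

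Array SA 1 weighed on this count. Without it MYB29 alone passed, and MYB12A and MYB81 reached adjusted p = 0.0622 and 0.0751. On the values as deposited, without scaling between arrays, MYB29 was again the 1 gene that passed (adjusted p = 0.0136), and the median of all probe sets then sat at -0.17. MYB12A gave 1.20 (adjusted p = 0.12) on that scale, MYB81 0.93 (adjusted p = 0.385) and MYB68 0.46 (adjusted p = 0.671).

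**Figure D1:**
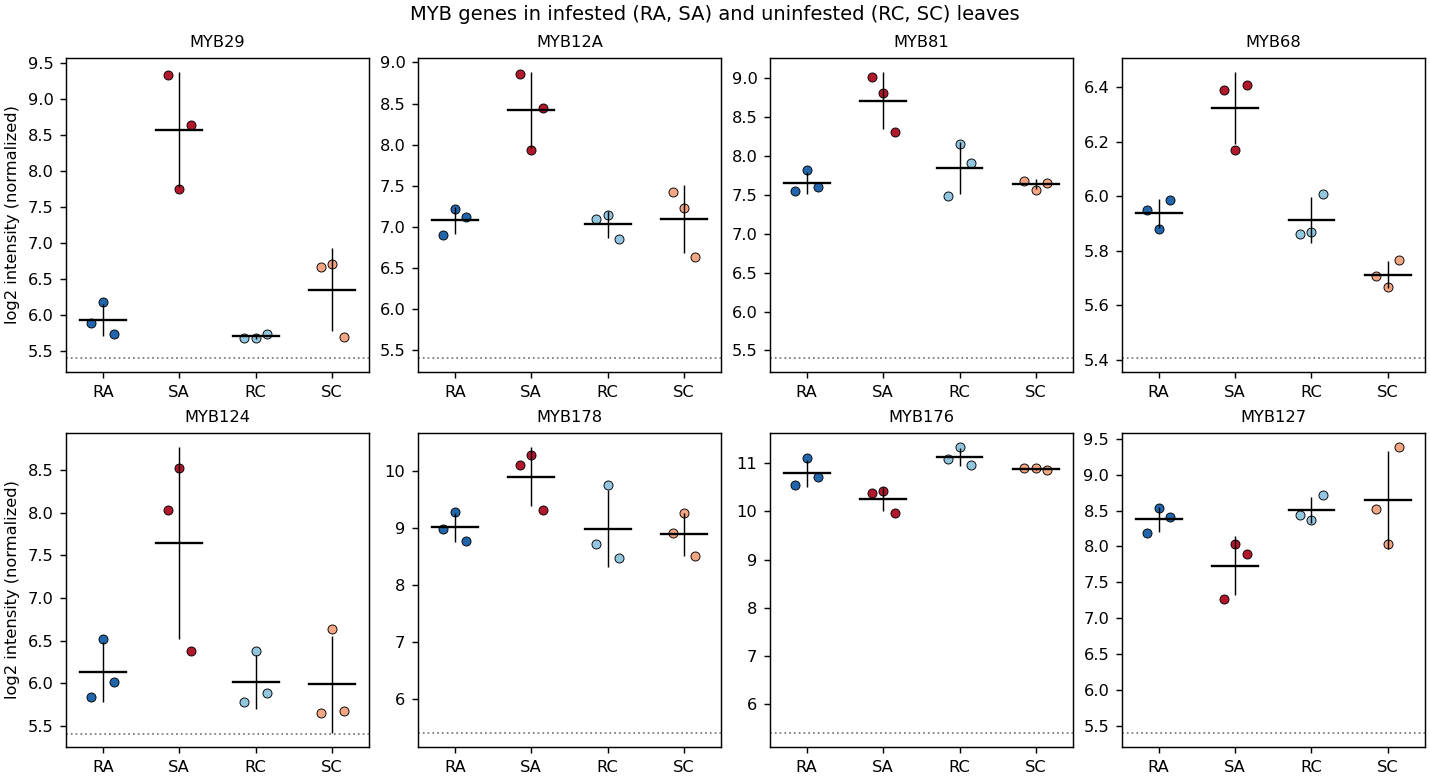
Log2 normalized intensity of 8 MYB genes in each of 12 arrays (points), with group mean (horizontal line) and SD (vertical line) for infested R (RA), infested S (SA), uninfested R (RC) and uninfested S (SC) plants. The dotted line is the mean control level of the groups. MYB29, MYB12A, MYB81 and MYB68 have all 3 SA arrays above the other 9.

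Deviations of S arrays from their group means correlated at 0.13 to 0.36 where the number was the same. Arrays with different numbers reached up to 0.20, so the pairing by number is not clear in S plants. With the number as a block the count in the susceptible response became 6 higher and 1 lower, beside 4.34% and 2.23% of all probe sets. At the methods' cutoffs on p, q and fold, MYB29 alone was called higher and none lower by the probe set that stands for the gene (0.92% and 0.114% of all probe sets). Where any probe set of a gene counted, MYB12A was called higher too, but only by the probe set that the study gives to another MYB gene. The genes added by the block genes were MYB124, MYB178 and MYB176. MYB124 read 8.03, 8.53 and 6.38 in SA plants, against 5.65, 6.64 and 5.67 in SC plants. Array SA 3 lay below the second SC array, so the groups overlapped, and the difference of 1.66 had adjusted p = 0.0749 without the block and 0.00893 with it. Without array SA 3, MYB124 passed also in the unblocked fit, at 2.31 (adjusted p = 0.00452).

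MYB178 read 10.11, 10.28 and 9.31 in SA plants, against 8.92, 9.26 and 8.50 in SC plants. All SA arrays lay above the SC arrays, by a narrow margin at the inner pair. The difference of 1.01 had adjusted p = 0.147, and 0.00738 with the block. Its second probe set gave 1.10 (adjusted p = 0.146, with the block 0.045).

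MYB176 went the other way, and it is the bright regulator of CHS8 named above. It read 10.37, 10.43 and 9.98 in SA plants, against 10.90, 10.89 and 10.86 in SC plants. The SA arrays lay below all SC arrays, which lay close together. The difference of -0.63 had adjusted p = 0.0786, and 0.032 with the block. MYB175, with which 2 shared probe sets tie it as a near copy, differed by -0.60 (adjusted p = 0.229), and those shared probe sets by -0.42 and -0.39. The pair thus gave like values, but probe sets that read both genes are not independent measurements.

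The remaining differences with the largest size in S plants did not pass. On the side above 0 they were MYB184 with 0.79, MYB92 with 0.77 and MYB52 with 0.71 (adjusted p = 0.565, 0.331 and 0.101). On the side below 0 they were MYB127 with -0.91, MYB138 with -0.82, MYB145 with -0.72, MYB139 with -0.65, MYB112 with -0.44 and MYB143 with -0.42, and their adjusted p lay between 0.133 and 0.659. MYB52 passed without array SA 3 (adjusted p = 0.0237), and MYB127 and MYB139 without array SC 2 (adjusted p = 0.0457 and 0.0418). A second probe set under the symbol MYB145, which reads several transcripts, did fall (difference -0.86, limma adjusted p = 0.0292). It read 6.99, 7.64 and 7.51 in SA plants, against 8.19, 8.11 and 8.41 in SC plants. The platform gives it another gene ID than the probe set that stands for MYB145, so both may not read the same gene. MYB92, which raises stress tolerance when expressed in Arabidopsis, gave 0.70 and 0.33 with its other 2 probe sets.

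Some members stood out by their spread and not by a group. MYB184 measured 8.90, 8.73 and 8.32 in SA plants, against 8.60, 8.51 and 6.47 in SC plants, and without array SC 3 the difference of 0.79 was 0.10. Its pooled SD of 0.88 was the highest of the family. MYB138 followed with 0.87. It was at its lowest in the array numbered 2 of every group, with 7.32 in RA, 7.13 in SA, 7.84 in RC and 7.53 in SC, against 8.40 to 9.65 in 7 of the other 8 arrays and 7.39 in array SA 1. Its second probe set followed the first over the 12 arrays (r = 0.95).

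Groups whose arrays did not overlap were counted as well. In S plants 10 MYB genes had all SA arrays above all SC arrays and 4 had them below. These shares were 15.4% and 6.15%, beside 8.33% and 10.8% of all probe sets, so by this count the family and the array leaned opposite ways. The 10 were MYB11, MYB12A, MYB133, MYB178, MYB29, MYB52, MYB60, MYB68, MYB76 and MYB81, and the 4 were MYB109, MYB118, MYB175 and MYB176. MYB76, another factor tied to stress tolerance in transgenic Arabidopsis, had 7.12, 6.91 and 6.76 in SA plants, against 6.61, 6.48 and 6.22 in SC plants (difference 0.49, adjusted p = 0.15). MYB118, linked to drought and salt tolerance, lay at the control level in SA plants.

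In the resistance response, the comparison of infested with uninfested R plants, no MYB gene passed the limma test, and no soybean probe set did either (0% called in either direction). At an unadjusted p under 0.05, none was higher and 3 were lower, beside 1.19% and 0.87% of all probe sets. The 3 were MYB179, MYB79 and MYB11. The median of the family was -0.04 and its range -0.71 to 0.38, against -0.91 to 2.22 in S plants. Arrays that did not overlap were found for 5 genes, all lower in RA plants, beside 2.77% higher and 3.48% lower of all probe sets, and they included MYB139 and MYB56.

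MYB179 had the largest difference in R plants. It read 6.69, 6.74 and 6.50 in RA plants, against 7.39, 7.23 and 7.42 in RC plants. In S plants it read 7.78, 7.23 and 7.62 in SA, against 6.88, 7.14 and 7.63 in SC. Infested R plants thus lay below every other array, while the S groups overlapped. The difference in R plants was -0.71 (SE 0.20, unadjusted p = 0.00396, adjusted p = 1). MYB79, tied to it by a probe set that names both and MYBZ2, read 7.92, 8.60 and 8.42 in RA plants, against 9.02, 8.78 and 8.79 in RC plants. Its difference was -0.55 (unadjusted p = 0.0103, adjusted p = 1). The genes that rose in S plants gave 0.23 (MYB29), 0.05 (MYB12A), -0.19 (MYB81) and 0.03 (MYB68) in R plants, each with adjusted p = 1.

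**Figure D2:**
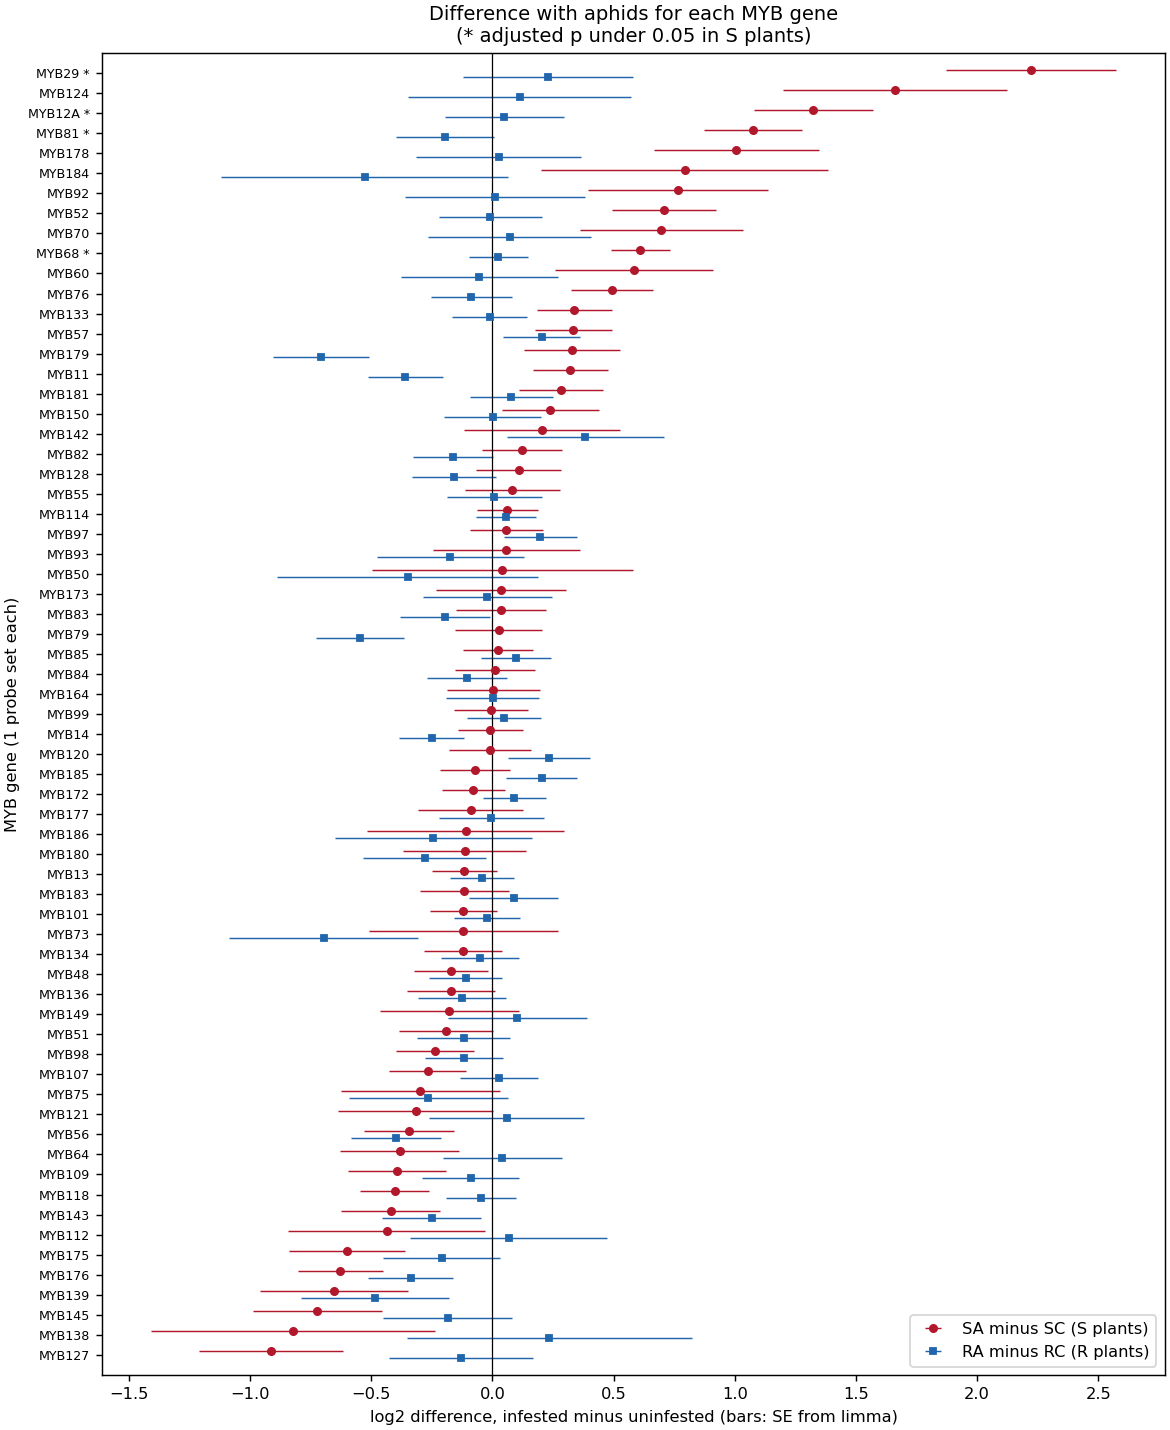
Log2 difference with aphids of each of the 65 MYB genes (rows), infested minus uninfested, for S plants (circles) and R plants (squares), with SE from limma, ordered by the S plants. Differences run from -0.91 to 2.22 in S plants and from -0.71 to 0.38 in R plants, and an asterisk marks adjusted p under 0.05 in S plants.

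Whether the responses of both lines differed was tested as an interaction, the difference in S plants minus that in R plants. No MYB gene passed (limma, adjusted p under 0.05), beside 0.00798% of all probe sets. At an unadjusted p under 0.05, 10 MYB genes had a positive interaction and none a negative one, beside 3.82% and 3.1% of all probe sets. The smallest p belonged to MYB81 (1.27, SE 0.29, unadjusted p = 0.000816, adjusted p = 0.243), MYB29 (1.99, SE 0.50, unadjusted p = 0.00175, adjusted p = 0.312) and MYB179 (1.03, SE 0.28, unadjusted p = 0.00315, adjusted p = 0.357). MYB12A followed with 1.27 (adjusted p = 0.358). At the methods' relaxed criteria, an unadjusted p of at most 0.05 and a fold of at least 2, 5 were positive and none negative, beside 1.96% and 0.918% of all probe sets. A rise in S plants that passed and a difference in R plants that did not are therefore not shown to differ for any of these genes after adjustment.

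The genetic differences, uninfested R against uninfested S plants, were small in this family. No gene-level MYB probe set passed (limma), beside 0.0239% of all probe sets called higher and 0.0505% called lower. At an unadjusted p under 0.05, MYB11 was higher and MYB142 lower, beside 1.38% and 1.52% of all probe sets. MYB11 read 5.93, 6.23 and 5.94 in RC plants, against 5.28, 5.63 and 5.44 in SC plants, just above the control level (difference 0.59, unadjusted p = 0.00271, adjusted p = 0.856). MYB142 read 7.76, 6.97 and 7.10 in RC plants, against 7.94 to 8.31 in SC plants (difference -0.81, unadjusted p = 0.0278, adjusted p = 1). Both pairs of groups were free of overlap, which held for 4 genes higher and 3 lower in RC plants, beside 3.94% and 3.56% of all probe sets.

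The clearest difference between the lines came from a probe set that did not stand for its gene. MYB139 has 3 probe sets, and the second read 8.82, 8.94 and 8.73 in RC plants, against 6.63, 6.76 and 7.49 in SC plants. With aphids it read 7.87, 8.54 and 8.11 in RA plants, against 6.22, 5.93 and 6.31 in SA plants. All 6 R arrays lay above all 6 S arrays. The differences were 1.87 between the uninfested lines (SE 0.23, adjusted p = 0.00748) and 2.03 between the infested lines (SE 0.23, adjusted p = 0.00142).

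The other probe sets of MYB139 moved the same way by less. The one with the highest mean gave 0.51 between RC and SC plants and 0.67 between RA and SA plants (adjusted p = 1 and 0.318). The third gave 0.65 between RC and SC plants (adjusted p = 1) and 1.06 between RA and SA plants (adjusted p = 0.0483). Which transcript or stretch each probe set reads was not examined here. In the response to aphids the 3 probe sets lay close together, at -0.65, -0.81 and -0.77 in S plants and -0.48, -0.65 and -0.36 in R plants, none past the test.

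**Figure D3:**
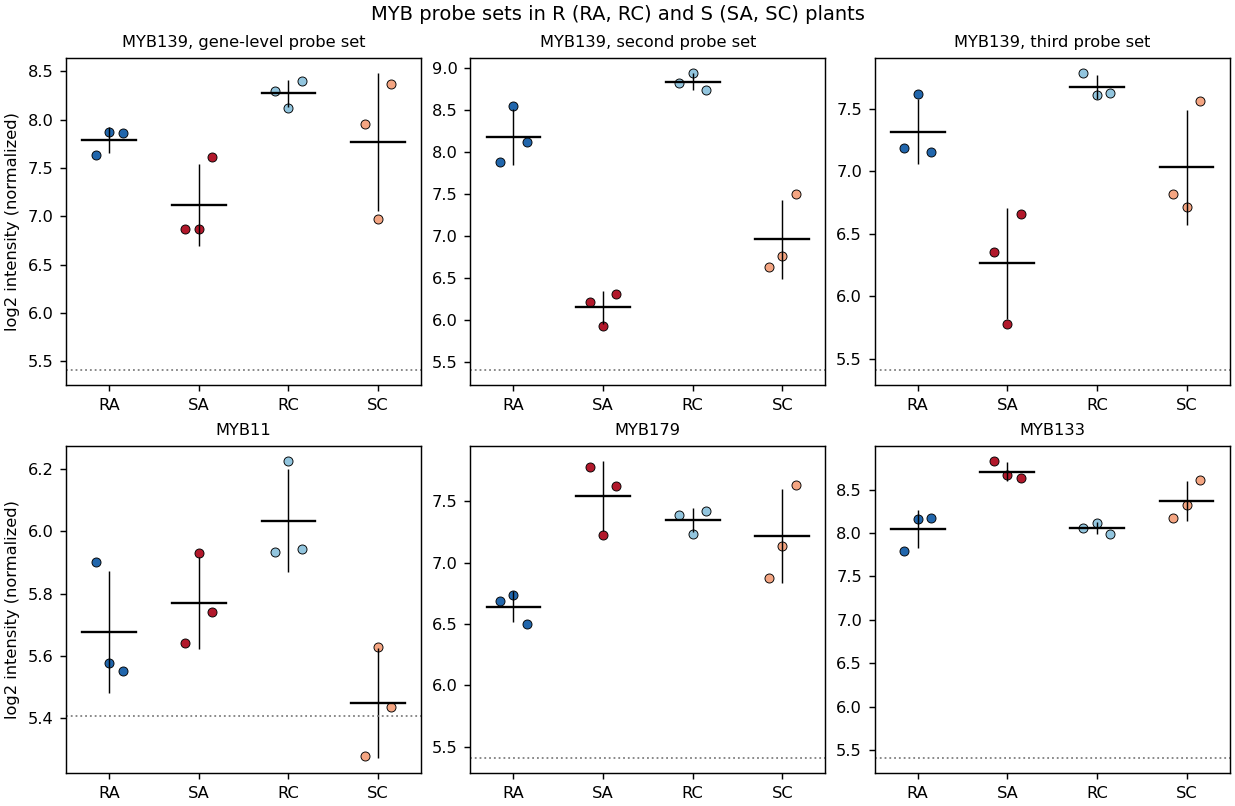
Log2 normalized intensity by array (points) with group mean and SD for the 3 probe sets of MYB139 and for MYB11, MYB179 and MYB133, in RA, SA, RC and SC plants. In the second probe set of MYB139 the R arrays run from 7.87 to 8.94 and the S arrays from 5.93 to 7.49.

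Infested R plants were also set against infested S plants, although aphid numbers differ between the lines and the SA arrays are the same ones that enter the susceptible response, so both comparisons share their readings. In RA plants 5 MYB genes were lower than in SA plants and none was higher (limma, adjusted p under 0.05), beside 2.29% and 0.702% of all probe sets. At the methods' cutoffs 1 was lower and none higher by the probe set that stands for the gene, beside 0.729% and 0.0984% of all probe sets. Where any probe set counted, MYB29 and MYB12A were lower and MYB139 was higher. MYB12A was again called only by the probe set that the study gives to another MYB gene. MYB29 differed by -2.64 (SE 0.35, adjusted p = 0.00281), MYB12A by -1.34 (adjusted p = 0.0142) and MYB81 by -1.06 (adjusted p = 0.0168). These are the genes that rose in S plants, and MYB68 gave -0.38 (adjusted p = 0.122). The other called genes were MYB179 with -0.90 (adjusted p = 0.0321) and MYB133, a regulator of isoflavonoid synthesis, with -0.66 (adjusted p = 0.041).

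MYB133 read 7.79, 8.17 and 8.18 in RA plants, against 8.83, 8.66 and 8.63 in SA plants. Its RC arrays read 8.06, 8.12 and 7.99, against 8.17, 8.32 and 8.61 in SC plants. By this probe set R arrays lay below S arrays in both states. Between RC and SC plants it gave -0.31, but the other 2 probe sets gave 0.255 and 0.217, none past the test. The other 2 probe sets of MYB133 gave 0.01 and -0.25 between RA and SA plants (adjusted p = 0.996 and 0.675), so the call rests on 1 probe set. It was lost with any of 9 single arrays left out (adjusted p up to 0.185), with median centering (adjusted p = 0.0641), with trend and robust moderation (adjusted p = 0.0554) and with only the arrays compared (adjusted p = 0.107). The values as deposited did not give the call either (limma, adjusted p = 0.879). In the blocked fit MYB124 (-1.52, adjusted p = 0.108 without and 0.0148 with the block) and MYB178 (-0.88, adjusted p = 0.222 without and 0.0152 with the block) joined the lower genes. Without array SA 1, RA 1 or RA 3 the count was 1, and the 1 gene was MYB29. Arrays that did not overlap were found for 12 MYB genes lower and 4 higher in RA plants, beside 8.36% and 9.55% of all probe sets.

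Agreement between probe sets of a gene bears on all of these values. Of the 65 genes 40 had 1 probe set and 25 had several. In 21 of the 25 all probe sets had the same sign in S plants, and in MYB48, MYB50, MYB73 and MYB84 the signs differed, with no difference over 0.19 in size. MYB50 had probe sets whose mean levels lay 4.58 apart on the log2 scale. MYB57 (0.33, 0.37 and 0.61) and MYB60 (0.12 to 0.59 over 4 probe sets) were above 0 with each, none past the unblocked test. With the block the MYB57 probe set at 0.61 passed (limma, adjusted p = 0.0365).

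**Figure D4:**
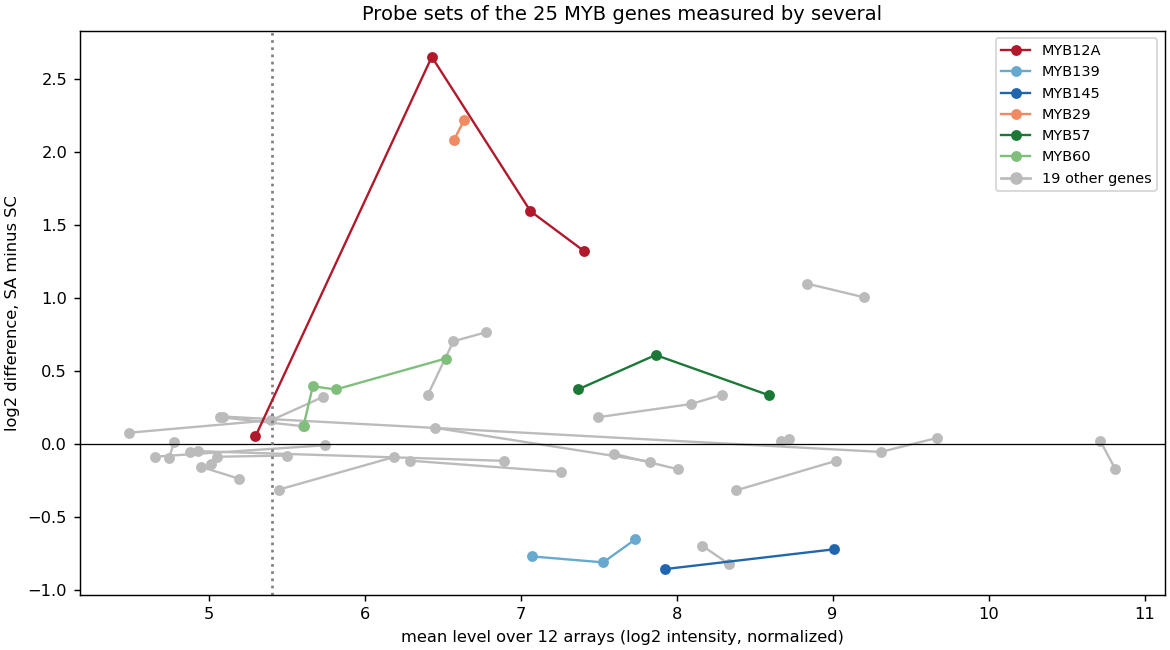
Log2 difference of SA minus SC (vertical axis) against the mean level over 12 arrays (horizontal axis, log2 intensity) for each probe set of the 25 MYB genes with several, lines joining probe sets of a gene. The dotted line is the mean control level. The 4 probe sets of MYB12A run from 0.05 at the control level to 2.65.

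The probe sets that name several MYB symbols were taken as values only. None of the 15 passed in any comparison without the block, with a lowest adjusted p of 0.0719 in S plants and 0.0871 between RA and SA plants. The closest was the 1 for MYB62 and MYB52, with 0.88 in S plants, near the 0.71 of MYB52 alone. With the block it passed in S plants (limma, adjusted p = 0.0467). The 4 that name MYB128 and MYB129 ran from -0.48 to -0.08 in S plants. RefSeq lists MYB129 as a synonym of MYB128. It also lists MYB169, which 2 further probe sets name beside MYB98, as a synonym of MYB98. These probe sets may thus each name a single gene.

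The other 43 MYB genes gave no call in any comparison. Their differences ran from -0.40 to 0.70 in S plants, from -0.70 to 0.23 in R plants, from -0.28 to 0.38 between RC and SC plants, and from -0.76 to 0.73 between RA and SA plants. The lowest adjusted p among them was 0.15 in the susceptible response and 0.154 between RA and SA plants. The distance between their group means stayed under 0.5 for 38 of 43. MYB70 had the widest, at 0.83, with its highest mean in SA plants. MYB73, a factor that raises lipid content in transgenic plants, had 7.25, 7.43 and 7.15 in RA plants, against 8.44, 8.17 and 7.31 in RC plants (difference -0.70, adjusted p = 1). MYB177, MYB14 and MYB173, which have been linked to stress responses, differed by -0.09, -0.01 and 0.03 in S plants.

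**Figure D5:**
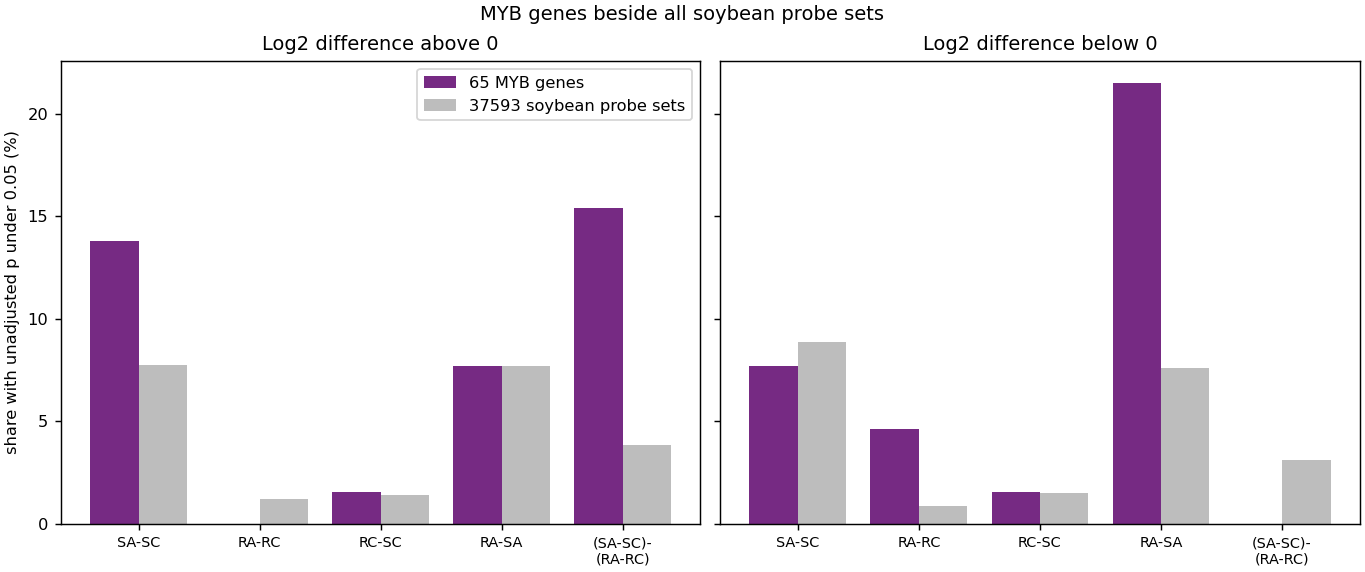
Share in percent with an unadjusted p under 0.05 in each comparison, above 0 (left) and below 0 (right), for the 65 MYB genes (dark bars) and all 37593 soybean probe sets (grey bars). In the susceptible response 9 MYB genes lay above 0 and 5 below, and in the interaction 10 and 0.

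Genes of the phenylpropanoid and flavonoid pathway, the best known targets of MYB factors, were measured on the same arrays as a list of 32 symbols. Each symbol was read by its probe set with the highest mean, so the list is a part of the pathway. In the susceptible response none of the 32 rose and 3 fell, beside 2.51% and 0.902% of all probe sets. The study looked at a larger set of pathway genes in S plants at its relaxed criteria. It reports that the isoflavonoid branch mostly rose, while the flavonol and lignin branches appeared lower or unchanged. In leaves from a similar experiment it also reports that the isoflavones daidzein, genistein and formononetin increased with aphids. The counts of the present list therefore do not stand for the whole pathway. At its strict cutoffs, with its own gene assignment, the study reports pathway genes that rose as well as genes that fell. Among those that rose is a chalcone synthase that the study annotates under the same name as CHS1 of this list. The study read it by a different probe set. The probe set that stands for CHS1 here gave -0.06 in S plants (limma, adjusted p = 0.969). F3H, the hydroxylase that leads to flavonols and anthocyanins, read 6.15, 7.01 and 6.72 in SA plants, against 8.43, 8.36 and 8.49 in SC plants (difference -1.80, adjusted p = 0.00188). FLS1, which makes flavonols, fell by 1.12 (adjusted p = 0.0205), and UGT78K1, which puts sugars on anthocyanidins, fell by 1.09 (adjusted p = 0.0369). Differences in the list ran from -1.80 to 1.70, with 16 genes above and 16 below 0 and a median of 0.01, against -0.04 over all probe sets.

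CHS8, a chalcone synthase on the isoflavone side, read 12.31, 11.11 and 11.82 in SA plants, against 11.59, 10.43 and 9.88 in SC plants. The groups overlapped, and the difference of 1.11 had adjusted p = 0.254, or 0.0188 in the blocked fit, where 2 of the 32 rose in S plants (CHS8 and 4CL2) and 3 fell, beside 4.34% and 2.23% of all probe sets. IFR, an isoflavone reductase, gave 1.70 in S plants (adjusted p = 0.179).

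Between infested R and infested S plants 2 genes of the list were higher and 2 lower, beside 0.702% and 2.29% of all probe sets. F3H (0.98, adjusted p = 0.0423) and 4CL (0.86, adjusted p = 0.034), a ligase at the entry of the pathway, were higher in RA plants. The other 4CL genes lay below 0, with -0.68 (4CL1), -1.43 (4CL2), -0.89 (4CL3) and -0.74 (4CL4), none past the unblocked test. CHS8 (-1.94, adjusted p = 0.0469) and IFR (-2.71, adjusted p = 0.0377) were lower. The list's median was -0.43, against 0.04 over all probe sets, and with the block the counts were 2 higher and 7 lower, beside 1.88% and 4.46% of all probe sets. The genes that the block added were 4CL2, 4CL3, 4CL4, C4H and PAL2.1, all of them early steps of the pathway and all lower in RA plants. No gene of the list passed in R plants, where its median was -0.07, in RC against SC plants, where it was -0.34 (limma), or in the interaction. With the block F3H passed in the interaction (adjusted p = 0.042). Without array SA 1, RA 1 or RA 3, none of the 32 passed between RA and SA plants, and without array SA 1 or SC 3 a single gene passed in the susceptible response.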

How the data were processed

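Leaf RNA of 12 samples was read on the Affymetrix Soybean Genome Array, 3 per group. The authors deposited log2 values. The methods name GCRMA and the submitters' processing notes RMA, GCRMA and limma, but 99.6% of the deposited log2 values returned whole numbers when unlogged (tolerance 1e-06) and the array medians differed, so they were treated as not yet scaled. They were quantile normalized over the 37593 soybean probe sets. A mean per group was fitted over all 12 arrays with limma 3.58.1 in R 4.3.3 (lmFit, eBayes), p-values were adjusted after Benjamini and Hochberg over all soybean probe sets, and adjusted p under 0.05 counted as passed. The fit was tested on simulated data. The number of arrays limits precision, and p-values measure the spread between these pools of plants.

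Gene names came from the platform annotation. Of 66 gene IDs behind the 65 symbols (MYB145 covers a pair), 57 matched the RefSeq table of Glycine_max_v4.0, which gives 56 as protein coding. It lists MYB134 as a synonym of MYB114 and MYB120 as a synonym of MYB64, and joining synonyms left 63 genes. Named genes were those that passed in any comparison, the 8 highest and 8 lowest in the susceptible response and the 3 with the smallest p in each other comparison, and any MYB gene the paper names by gene ID. Other genes named in the text were chosen after their values were seen. Members and lists were chosen with earlier results of these data known. A list of MYB partner proteins matched no symbol, and protein features were not analysed here.

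Array numbers are shared between groups. Deviations of same-numbered arrays from their group means correlated at 0.13 to 0.36 for SA and SC, 0.29 to 0.48 for RC and SC, 0.17 to 0.42 for RA and SA, and -0.12 to 0.49 for RA and RC. Arrays with different numbers reached at most 0.20, 0.03, 0.05 and 0.39 in the same order. From the data and not from the labels, the numbers may therefore pair the arrays for RC and SC and for RA and SA. For SA and SC the same-numbered and differently numbered values overlapped, so the pairing is not clear there. The main counts come from the fit without the block, which ignores any such pairing. With the block 7 MYB genes passed in SA against SC plants and 7 in RA against SA plants. Alternatives were the deposited scale, median centering, normexp background, a filter on dim probe sets, control probe sets included, the replicate block, only the arrays compared, trend and robust moderation, the methods' cutoffs, any probe set of a gene, and each array left out. Relaxed criteria, symbols joined by synonym, unique probe sets preferred, the methods' cutoffs on any probe set and the pathway list with each array left out were added after seeing the data.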

Additional observations from a re-analysis of the deposited data

Results flagged for a closer look

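MYB11 had opposite directions with aphids in the lines, but the difference between them did not pass the test after adjustment (limma, adjusted p = 0.48). The difference in S plants minus that in R plants was 0.68 (SE 0.22, unadjusted p = 0.00943), with all arrays of SA above all of SC (5.64, 5.93 and 5.74, against 5.28, 5.63 and 5.44) and all of RA below all of RC (5.90, 5.58 and 5.55, against 5.93, 6.23 and 5.94). Its other probe sets gave 0.16 and 0.08 in S plants and 0.28 and -0.04 in R plants, so neither repeated the opposite signs at that size, and MYB11 sits within 1 log2 unit of the control level.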

How the results depend on the processing

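The count of 4 MYB genes past the test in the susceptible response became 1 on the values as deposited, 2 among probe sets above the median level, 7 with the replicate block, 2 with only the arrays compared and 1 at the methods' cutoffs, and ranged from 1 to 6 with an array left out. The count of 5 between RA and SA plants became 1 on the values as deposited, 3 among probe sets above the median level, 2 with only the arrays compared and 1 at the methods' cutoffs, and ranged from 1 to 5 with an array left out. In RC against SC plants it became 1 (MYB139) where any probe set of a gene counted, also at the methods' cutoffs, which then gave 2 in the susceptible response and 3 between RA and SA plants, and in the interaction 5 at the relaxed criteria. At the methods' cutoffs MYB12A counted only by the probe set that the study gives to another MYB gene. For the pathway list, the 3 in the susceptible response became 1 on the deposited scale and 5 in the blocked fit (1 to 3 with an array left out). The 4 between RA and SA plants became 2 on the deposited scale and 9 in the blocked fit (0 to 5 with an array left out), and the interaction gave 1 with the block. Beyond those given, the block changed no call of a MYB gene by its highest probe set. Of 782 alternative values of 40 named gene results, 7 changed sign, all of differences near 0 that were not called. On the values as deposited MYB12A gave -0.0502 in RA minus RC and 0.0315 in RC minus SC, and ran from -0.0414 to 0.14 and from -0.30 to 0.10 with an array left out. The interaction of MYB139 ran from -0.56 to 0.14. Where a count moved with the scaling, the cause was not tested. The deposited scale put the median of all probe sets at -0.17 in the susceptible response and 0.14 in RA minus SA, against -0.04 and 0.04. The list of MYB partner proteins could not be filled and its alternatives were not run. Signal near the control level limits the dimmest genes.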
